A study of Mus musculus with 75 samples.

Results

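The genes described here were 34 genes of DNA repair, listed by name from homologous recombination, the Fanconi pathway, mismatch repair and the damage kinases, among the 24984 genes in each RNA-seq count table of cultured mouse skin fibroblasts. They were listed for their known roles and not for a measured value, though with earlier results of these data known. All 34 passed the filter on low counts in each of the 5 experiments, in which 12310 to 13442 genes were tested. They comprised 4 damage kinases (Atm, Atr, Chek1, Chek2), 5 genes of end resection (Mre11a, Rad50, Nbn, Rbbp8, Exo1) and 5 genes of BRCA complexes (Brca1, Bard1, Palb2, Brca2, Brip1). A further 8 act in strand exchange (Rad51b, Rad51c, Rad51d, Xrcc2, Xrcc3, Rad51ap1, Rad54l, Rad54b), 8 encode the Fanconi core complex (Fanca, Fancb, Fancc, Fance, Fancf, Fancg, Fancl, Fancm), 2 encode the ID2 complex (Fancd2, Fanci), and the last 2 were the helicase gene Blm and the mismatch repair gene Msh6.

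Homologous recombination repairs a broken chromosome by copying the intact sister. The break is resected to single strands, BRCA1 and BRCA2 complexes act with the strand exchange proteins on them to pair them with the intact copy, and the kinases ATM and ATR signal the damage through CHK2 and CHK1. The Fanconi core complex attaches ubiquitin to FANCD2 and FANCI at crosslinked DNA, and many of these genes are known to be transcribed most in S and G2 phase, in part through E2F factors.

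The cells were skin fibroblasts of C57BL/6 mice passaged at a ratio of 1 to 3 until they entered replicative senescence, the lasting arrest of cells that have divided many times. For RNA-seq, passages P1, P3, P5 and P7 had 4 libraries each, made from female mice 2 months of age, and ATAC-seq covered 4 P1 samples and 3 samples at each later passage. E2f4, an E2F factor known mostly as a repressor, was overexpressed from a lentiviral vector induced by doxycycline (2 libraries), and the controls were cells that overexpressed EGFP (2 libraries labelled as vector overexpression). E2f4 was knocked down with hairpin sh1, Tead1, the DNA-binding partner of YAP, with sh3 or sh4, and Atf3, a stress-induced factor of the ATF family, with sh5 or sh6, each in 3 libraries and against 3 libraries of a non-targeting hairpin. Only 1 hairpin against E2f4 was analysed here, so an effect of E2f4 loss and an effect of that hairpin on other genes cannot be told apart. E2f4 was overexpressed in pre-senescent cells at P4 and knocked down in proliferating cells at P3, and Atf3 was knocked down in pre-senescent cells. The methods of the study give P6 for cells used in senescence interventions, without naming the Atf3 or the Tead1 cells. Fibroblasts of mice 2 months of age and of newborn mice were both used for the manipulations, and which library came from which age is not given in the sources used here. The labels do not say whether replicates came from separate animals or cultures, so the p-values below measure the spread between these libraries, which may be technical.

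Values are CPM, each gene's counts relative to its library's total with TMM scaling, tests are edgeR's quasi-likelihood test with Benjamini-Hochberg adjustment over all genes tested, and a gene was called at an adjusted p under 0.05. Changes of single genes are log2 fold changes ± SE. Total counts ran from 13430229 to 15725823 in the passage libraries and from 9147324 to 27552949 in the others. The sum of 9 fibroblast markers was 22685 CPM or more in every passage library. At P1, markers of other cells were also present and later fell. The summed macrophage markers went from 286 to 435 CPM at P1 to 41.1 to 59.3 CPM at P3, those of keratinocytes from 43.9 to 307 CPM to 1.44 to 2.76 CPM, those of endothelium from 140 to 143 CPM to 36.7 to 41.4 CPM, and those of skeletal muscle from 132 to 200 CPM to 52.6 to 58.5 CPM. At P7 against P1, 6 of 7 tested macrophage markers, 4 of 5 of keratinocytes, 5 of 6 of skeletal muscle and 6 of 6 of endothelium were called lower. The first non-targeting library of the E2f4 knockdown (14.3% of reads outside genes, 6632 genes at 0) and sh5 replicate 3 of the Atf3 knockdown (15.1%, 9978 genes at 0) stood apart from the other libraries of their experiments.

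The choice of genes did not use their promoters, so the E2F consensus (read as TTCCCGC or as TTCGCGC or as TTGCCGC or as TTGGCGC, on either strand) was searched from 250 bases before to 50 bases after the start site in the RefSeq promoters of GRCm38.p6. Promoters of 26 of the 34 genes were in the table used. Of these 16 (61.5%) held a match, against 10.9% of 27025 genes with a promoter and 19.2% of the 10508 tested in the passage experiment. The promoters of Rad50, Nbn, Rbbp8, Exo1, Rad51d, Xrcc2, Rad54b and Fancd2 were not in it. A match is a description of the letters and not a bound site. The matched bases are in capitals with up to 10 bases on each side, 5′ to 3′ on the strand of the gene. The first set is of genes that fell more than 4-fold between P1 and P7, over the BRCA, kinase, strand exchange and Fanconi groups:
Brca1 (chr11:101551918-101551944, minus strand): ctagcgctagGCGCCAAgcggccggtt
Brca2 (chr5:150522443-150522469, plus strand): ttaggccacaGCGGGAAacagacacac
Bard1 (chr1:71103164-71103190, minus strand): gccgctcagtTTCCCGCtcaggaagtt
Brip1 (chr11:86201181-86201207, minus strand): ggggcgggagGCGCGAAttcatctgtg
Chek1 (chr9:36726609-36726625, minus strand): gcaggttttgGCGGGAA
Rad51ap1 (chr6:126939559-126939585, minus strand): ctggttttcgGCGGGAAttgaaaccgc
Fancb (chrX:164980410-164980436, plus strand): cggggtagagGCGGGAAtaagtgctct
Fanci (chr7:79392346-79392372, plus strand): gtggagtagaGCGGGAAttttggaagg

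The second set is shown because these genes hold the same kind of match and changed least over the passages among the 16:
Chek2 (chr5:110839821-110839847, plus strand): gggattagccGCGGGAAaccaagacgt
Fancf (chr7:51862372-51862398, minus strand): ttcattttcaGCGCCAAtgtgccccgg
Fancg (chr4:43010336-43010362, minus strand): tcttttcagtTTCCCGCggaaccgtct

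GCGGGAA and GCGCCAA are TTCCCGC and TTGGCGC read on the other strand. GCGGGAA stood in the promoters of Brca2, Chek1, Rad51ap1, Fancb and Fanci and also in that of Chek2. GCGCCAA stood in those of Brca1 and of Fancf, and TTCCCGC in those of Bard1 and of Fancg. The letters of the match did not separate the first set from the second. For comparison, the CHR motif of late cell-cycle genes (TTTGAA or TTCGAA) was in 3 of the 26 promoters (11.5%, against 21.7% of all genes). The TEAD motif GGAATG was in 2 (7.69%, against 16.6%) and the AP-1 motif (TGACTCA or TGAGTCA) in 0 (against 5.95%). For these motifs the share of the tested genes alone is not given here. The base composition of the promoters was not compared.

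Between P1 and P7, expression of most of these repair genes fell, with falls of more than 10-fold for Exo1, Rad51ap1 and Rad54l. At P7 against P1, 30 of the 34 were called lower and 1, Rad51d, higher, where 31.9% of all 13442 genes tested were called lower and 30.5% higher. More than 2-fold lower were 23 of 34, against 13.3% of all genes. The median log2 fold change of the 34 was -1.47. The falls were deepest in the BRCA (median -2.85) and ID2 (-2.81) groups and smaller in the damage kinases (-0.90), end resection (-0.90) and Fanconi core (-0.93) groups, where some genes changed little. The 30 genes called lower had no overlap between the 4 libraries of P1 and the 4 of P7, as had 30.3% of all genes in that direction. In bulk RNA, fewer cycling cells and less of these RNAs in each cell cannot be told apart. The 10 proliferation markers listed beside them were all called lower, with a median of -2.96, and Mki67, a marker of cycling cells, went from 323 ± 10.2 to 20.8 ± 3.37 CPM (SD, n = 4 each).

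**Figure D1:**
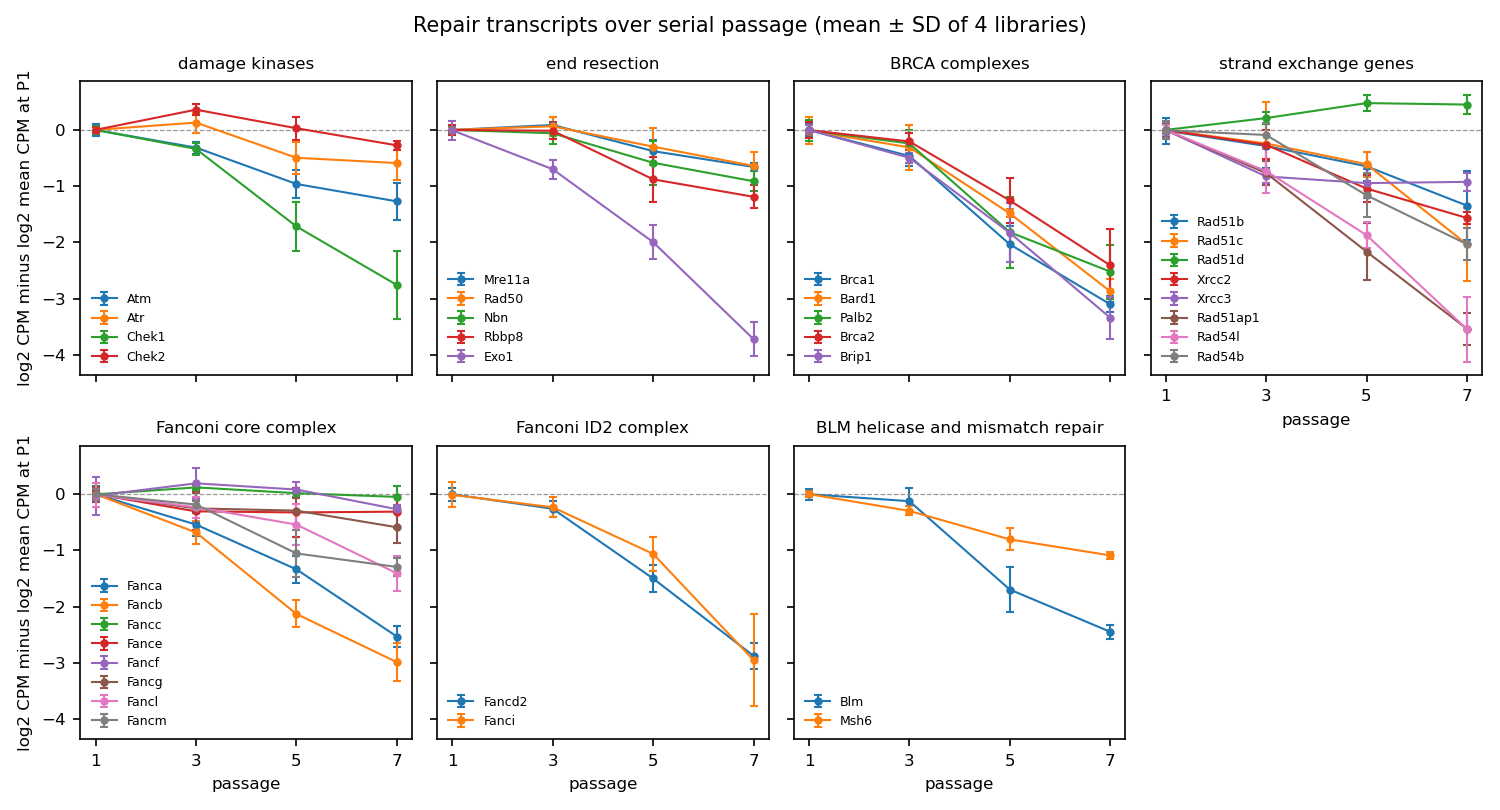
Passage course of the 34 genes in 7 panels by role: passage (x) against the log2 CPM minus the log2 of the mean CPM at P1 (y), as mean and SD of 4 libraries. Most lines fall after P3, those of the BRCA and ID2 panels furthest, while Rad51d rises and Fancc, Fance and Fancf stay near their level at P1.

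Most of the fall came after P3. At P3 against P1, 10 genes were called (33.4% of all genes), of which 9 were lower (17.5%) and 1 higher, with a median log2 fold change of -0.23. At P5 against P3, 24 were lower and 0 higher (15.3% and 13.4% of all genes), and 13 were lower by more than 2-fold (3.05%). At P7 against P5, 18 were lower and 0 higher (9.10% and 7.67%), and 11 by more than 2-fold (2.28%). The median changes of these 2 steps were -0.78 and -0.68. The largest downward step in the mean of a gene, called or not, came between P3 and P5 for 16 genes, between P5 and P7 for 16 and between P1 and P3 for 2, Xrcc3 and Fance. The mean was lower at each successive passage for 25 genes, and 8 genes were called lower at every step: Exo1, Brca1, Brip1, Rad51ap1, Rad54l, Fanca, Fancb and Msh6. Neighbouring steps share libraries, so these counts are given side by side only. Over all genes, 19.9% were lower without overlap at P3 against P1, 13.8% at P5 against P3 and 8.51% at P7 against P5. At P7 against P3, 29 of 34 genes were called lower (26.5% of all genes), 20 by more than 2-fold (7.41%), with a median of -1.24. Markers of other cells had fallen by P3 but were still counted there, and their part in the decline was not tested.

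Among the damage kinases all 4 genes were called lower at P7, with a 2-fold fall for Chek1 and Atm only. Chek1 encodes the kinase CHK1, which acts below ATR at stalled forks. It was at 15.8, 15.9, 17.4 and 15.96 CPM in the 4 libraries of P1 and at 12.4, 12.1, 12.9 and 14.2 CPM at P3, then at 5.56, 5.46, 6.27 and 3.18 CPM at P5 and at 4.35, 1.62, 2.23 and 2.15 CPM at P7. All libraries of P5 and P7 lay below all of P1 and P3, and the highest of P7 lay inside the range of P5. Its change from P1 to P7 was -2.65 ± 0.23, adjusted p = 5.66e-09. Atm, which encodes the kinase activated by double-strand breaks, stood at 75.8, 88.5, 86.95 and 82.8 CPM at P1 and 64.8, 68.04, 62.4 and 73.8 CPM at P3, and at 42.1, 54.5, 35.9 and 41.04 CPM at P5 and 26.9, 30.7, 43.5 and 40.1 CPM at P7. Its P3 libraries all lay below those of P1, and those of P5 and P7 overlapped. It fell by less than Chek1 (-1.24 ± 0.14, adjusted p = 1.95e-07).

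Chek2 encodes CHK2, the kinase below ATM, and had the smallest change of the 4. It was at 15.3, 14.7, 14.5 and 15.7 CPM at P1, rose to 19.98, 17.8, 18.9 and 20.6 CPM at P3, and was at 18.6, 13.3, 15.2 and 14.8 CPM at P5 and 12.5, 11.7, 12.3 and 13.3 CPM at P7. Every P3 library was above every P1 library, and every P7 library below every P1 library. The rise was 0.36 ± 0.11, adjusted p = 0.0135 and the net change at P7 against P1 -0.27 ± 0.11, adjusted p = 0.0355. Atr, which encodes the kinase of stalled forks, changed by -0.57 ± 0.14, adjusted p = 0.00216.

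In end resection, Exo1 fell furthest of all 34 genes and the MRN complex fell by less than 2-fold. Exo1, the gene of a nuclease of long-range resection and mismatch repair, was at 20.6, 23.9, 24.3 and 18.9 CPM at P1 and 12.03, 12.96, 15.8 and 13.5 CPM at P3. It was at 6.91, 4.70, 6.20 and 4.57 CPM at P5 and 1.37, 1.93, 2.08 and 1.41 CPM at P7. None of the 4 passages overlapped with the next, and the P7 values rested on 18 to 27 reads per library. Its change from P1 to P7 was -3.69 ± 0.18, adjusted p = 3.99e-12.

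Rad50, of the MRN complex that binds broken ends, was at 57.8, 58.2, 61.3 and 57.6 CPM at P1 and 53.1, 61.2, 61.6 and 70.8 CPM at P3, and at 51.2, 63.2, 37.03 and 43.4 CPM at P5 and 32.9, 32.6, 45.6 and 41.3 CPM at P7. P1, P3 and P5 overlapped, and only P7 lay below all of P1. It was called in no single step but at P7 against P1 (-0.62 ± 0.14, adjusted p = 6.80e-04). The other MRN genes, Mre11a (-0.66 ± 0.10) and Nbn (-0.90 ± 0.15), were close to it, and Rbbp8, which encodes the resection factor CtIP, changed by -1.18 ± 0.15.

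**Figure D2:**
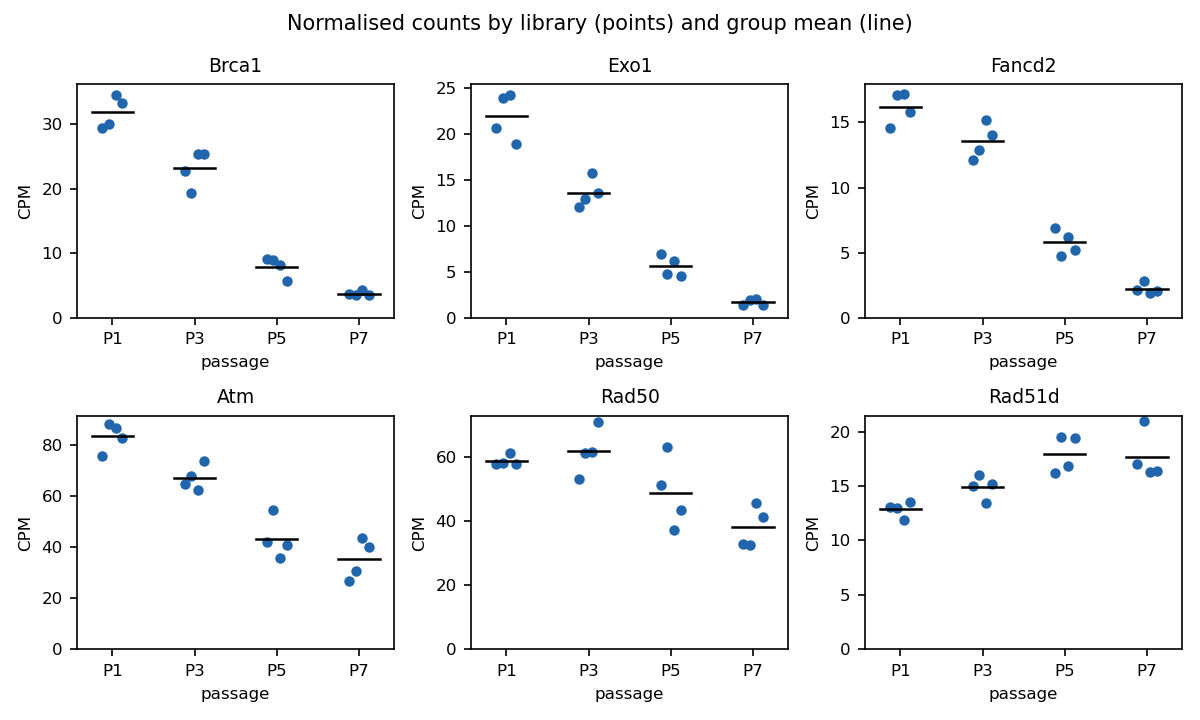
CPM (y, linear) of Brca1, Exo1, Fancd2, Atm, Rad50 and Rad51d in each of the 4 libraries of P1, P3, P5 and P7 (x). Each library is 1 point, and a short horizontal line marks the mean of each passage. The points of Brca1, Exo1 and Fancd2 separate from P3 to P5 and from P5 to P7, those of Rad50 overlap until P5, and those of Rad51d rise.

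All 5 genes of BRCA complexes fell more than 4-fold. Brca1, the gene of the ubiquitin ligase subunit that promotes resection and loads PALB2 and BRCA2, lies at chr11:101488761-101551955 on the minus strand. It was at 29.4, 30.04, 34.6 and 33.4 CPM at P1 and 22.8, 19.3, 25.4 and 25.3 CPM at P3, and at 9.05, 8.92, 8.08 and 5.63 CPM at P5 and 3.66, 3.47, 4.30 and 3.49 CPM at P7. The 4 passages did not overlap, and the mean at P7 was 11.7% of that at P1. The steps were -0.46 ± 0.13, -1.55 ± 0.14 and -1.08 ± 0.16 in turn, and the whole course -3.09 ± 0.15, adjusted p = 3.78e-12. Bard1, its partner in the ligase, changed by -2.85 ± 0.21, adjusted p = 8.62e-10, and Palb2, the bridge to BRCA2, by -2.45 ± 0.27, adjusted p = 2.16e-07.

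Brca2 encodes the breast cancer susceptibility protein that acts on resected single strands, and its RNA fell least of the 5. It was at 20.5, 22.2, 17.4 and 19.3 CPM at P1, 15.1, 16.8, 19.2 and 17.99 CPM at P3, 10.1, 10.9, 6.01 and 7.22 CPM at P5 and 2.98, 2.24, 5.61 and 5.27 CPM at P7. P1 and P3 overlapped, and P5 and P7 lay apart from them and from each other. The change was -2.30 ± 0.23, adjusted p = 4.48e-08. Brip1, a helicase that binds BRCA1, was at 20.3, 20.6, 19.6 and 18.2 CPM at P1 and 12.9, 13.6, 14.3 and 14.9 CPM at P3, then at 6.85, 7.05, 6.01 and 3.24 CPM and 1.68, 1.62, 2.84 and 1.86 CPM at P5 and P7. No neighbouring passages overlapped. With -3.29 ± 0.21, adjusted p = 8.98e-11, it fell furthest of the group.

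The strand exchange genes were the most mixed group, with 7 of 8 genes lower and 1 higher. Rad51ap1, whose product stimulates strand exchange, was at 25.2, 21.6, 24.7 and 23.1 CPM at P1 and 13.2, 11.7, 16.6 and 14.6 CPM at P3. It was at 7.50, 4.22, 6.78 and 3.64 CPM at P5 and 2.06, 1.54, 2.46 and 2.23 CPM at P7. Neighbouring passages did not overlap, and the change at P7 against P1 was -3.51 ± 0.21, adjusted p = 4.74e-11. Rad54l, which encodes a DNA translocase of recombination, moved by a similar -3.45 ± 0.23.

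Rad51d, a paralog in the complex with RAD51B, RAD51C and XRCC2, went the other way. It was at 13.1, 12.98, 11.9 and 13.6 CPM at P1 and 14.98, 16.1, 13.4 and 15.2 CPM at P3, and at 16.2, 19.5, 16.8 and 19.4 CPM at P5 and 17.02, 20.99, 16.3 and 16.4 CPM at P7. The P7 libraries lay above all of P1 and overlapped with P5. The change was 0.46 ± 0.11, adjusted p = 0.00150, and no single step was called. Its partners in the complex fell, with changes of -1.25 ± 0.28 for Rad51b, -1.93 ± 0.32 for Rad51c and -1.56 ± 0.16 for Xrcc2. Xrcc3, the partner of RAD51C in the other paralog complex, differed in timing. Its means were 17.2, 9.72, 9.04 and 9.11 CPM in passage order, so the fall came before P3 (-0.82 ± 0.13, adjusted p = 8.13e-05) and the later steps were -0.10 and 0.01. Rad54b changed by -2.003 ± 0.22, but 59.9% of its exonic bases are shared with other annotated genes, Fsbp among them, and the counting ignored strand, so its counts are uncertain.

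In the Fanconi core complex, 5 of 8 genes were called lower and 4 of them by more than 2-fold. Fancb, of the catalytic module with FANCL, was at 13.6, 13.2, 13.4 and 13.5 CPM at P1, 8.35, 9.88, 8.58 and 6.95 CPM at P3, 3.62, 3.04, 3.30 and 2.45 CPM at P5 and 1.603, 1.31, 2.31 and 1.71 CPM at P7. The passages did not overlap, and the change was -2.95 ± 0.18, adjusted p = 3.98e-11. Fanca, which joins a second module with FANCG, changed by -2.52 ± 0.15, Fancl, the ubiquitin ligase itself, by -1.38 ± 0.21, Fancm, the translocase that anchors the complex, by -1.29 ± 0.15, and Fancg by -0.57 ± 0.17.

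Fancc was the most even of the 34. It was at 7.74, 9.51, 9.57 and 8.72 CPM at P1 and 9.73, 9.67, 9.93 and 9.29 CPM at P3, and at 8.92, 8.57, 8.72 and 9.80 CPM at P5 and 10.4, 8.33, 7.92 and 7.94 CPM at P7. P1 and P7 overlapped in range, and the difference was -0.04 ± 0.12, adjusted p = 0.792. Fance (-0.29 ± 0.19, adjusted p = 0.190) and Fancf (-0.26 ± 0.17, adjusted p = 0.187), which with FANCC form the module that recruits FANCD2, were not called either. The 3 genes not called at P7 against P1 were thus the genes of this module.

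The ID2 pair, which the core complex modifies, fell together. Fancd2 was at 14.6, 17.1, 17.2 and 15.8 CPM at P1 and 12.1, 12.9, 15.2 and 14.04 CPM at P3, and at 6.91, 4.77, 6.20 and 5.23 CPM at P5 and 2.14, 2.78, 1.92 and 2.08 CPM at P7. P1 and P3 overlapped, while P5 and P7 lay below them and apart, and the change at P7 against P1 was -2.85 ± 0.16, adjusted p = 1.74e-11. Fanci was at 15.3, 12.03, 10.6 and 13.2 CPM at P1, 12.03, 10.1, 12.1 and 9.51 CPM at P3, 7.17, 5.88, 7.17 and 4.63 CPM at P5 and 0.992, 3.40, 2.00 and 1.11 CPM at P7. Its P7 libraries spread most widely, on 13 to 44 reads, and still lay below all of P5. The change was -2.77 ± 0.26, adjusted p = 2.45e-08.

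Blm encodes the helicase that dissolves joined DNA after recombination, and Msh6 a protein that recognises mismatches. Blm was at 23.8, 23.9, 22.1 and 20.7 CPM at P1, 16.2, 22.4, 22.1 and 23.04 CPM at P3, 9.76, 7.81, 5.56 and 5.63 CPM at P5 and 4.58, 3.70, 4.15 and 4.23 CPM at P7. P1 and P3 overlapped and all later libraries lay below them, with -2.44 ± 0.17, adjusted p = 3.71e-10 at P7 against P1. Msh6 was at 57.5, 53.3, 54.1 and 54.02 CPM at P1 and 47.3, 45.2, 44.4 and 41.4 CPM at P3, and at 37.3, 29.7, 32.1 and 27.2 CPM at P5 and 27.3, 25.5, 25.4 and 24.7 CPM at P7. Only P5 and P7 overlapped, by 1 library of each. Its fall was shallow and even, -1.09 ± 0.09, adjusted p = 4.97e-09.

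**Figure D3:**
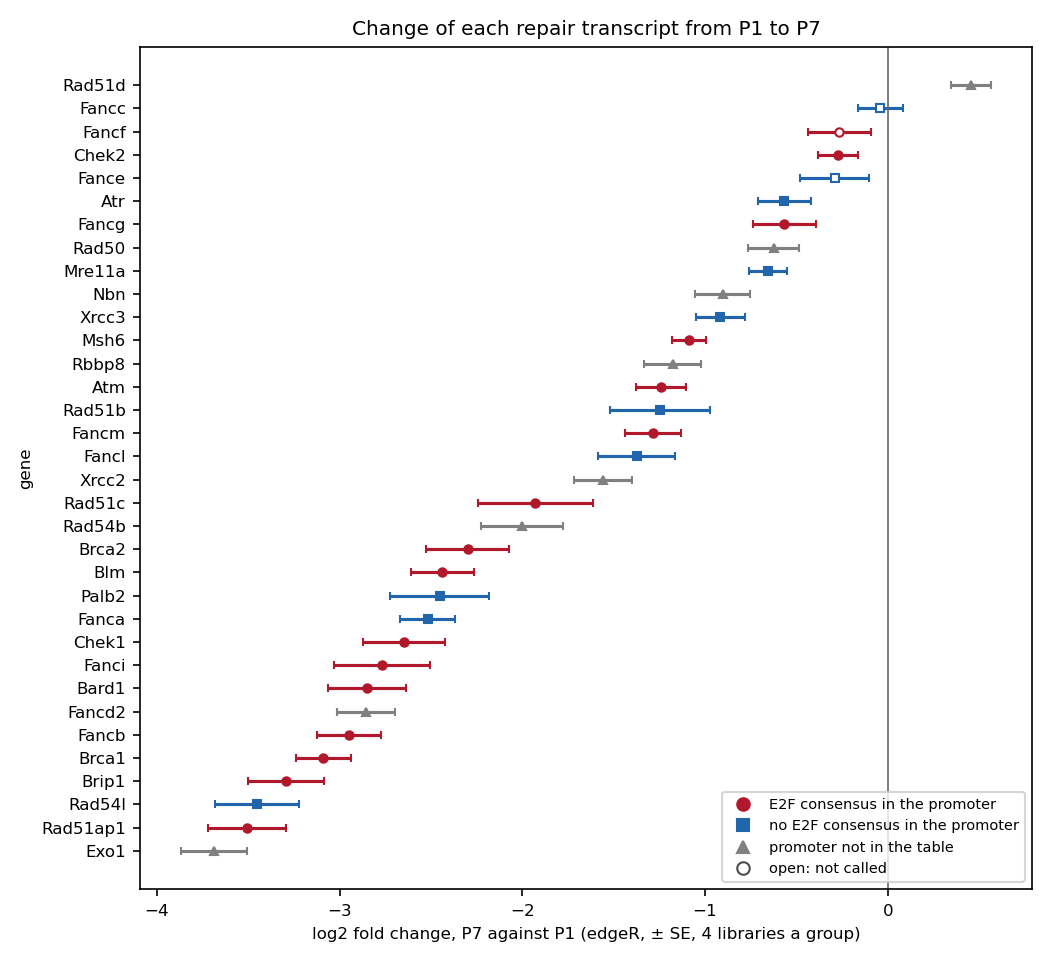
Log2 fold change at P7 against P1 (x) with its SE for each of the 34 genes (y), coloured by whether the RefSeq promoter held the E2F consensus, held none or was not in the table, with open symbols for genes not called. The 16 genes with a match have a median of -2.37 and the 10 without one a median of -1.08, and both reach from deep falls to values near 0.

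Set beside the promoters shown above, the 16 genes with an E2F match had a median log2 fold change of -2.37 at P7 against P1, and 15 of them were called lower. The 10 without a match had a median of -1.08 with 8 lower, and the 8 whose promoter was not in the table -1.37 with 7 lower. Over all genes tested, the median was -0.11 with a match (37.6% lower) and 0.02 without one (30.3% lower). Both ranges were wide: Rad54l, with no match, changed by -3.45, and Fancf, with a match, by -0.26. Exonic length also moved with the change. Over all genes tested, cut by exonic bases into 3 parts of equal size, the median log2 fold change was 0.16 in the shortest part and -0.17 in the longest, and of the 34 genes, 5 were in the shortest part (median -0.29), 10 in the middle (-1.40) and 19 in the longest (-2.003). The part of length in the result was not tested.

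Per kilobase of exon, Msh6 was highest at P1 (12.8 CPM per kb), followed by Nbn and Rad51ap1, and Rad54b was lowest (0.69 CPM per kb). At P7 Fance was highest (8.12 CPM per kb), then Rad50 (7.39 CPM per kb), and Rad54b again lowest (0.17 CPM per kb). Of 33 neighbours in that order, 26 overlapped in range at P1 and 31 at P7, so most neighbouring places do not differ beyond the spread. The median level of the 34 was 4.14 CPM per kb at P1 and 1.18 at P7. Besides Rad54b, 11 genes share between 0.488% and 21.7% of their exonic bases with an overlapping gene, Fancl with Vrk2 the most, and with strand ignored such reads cannot be divided.

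Other genes of the same pathways were listed by role, with earlier results of these data known. Most members of the recombination and the damage signalling lists were lower. At P7 against P1, where 31.9% of all genes were called lower and 30.5% higher, 19 of 27 other recombination and Fanconi genes were lower and 2 higher (median -1.10). The lowest were Eme1, a subunit of a structure-specific nuclease, at -3.98 ± 0.29 (SE), Rmi2, a partner of BLM, at -3.51 ± 0.36, and Fignl1 at -2.97 ± 0.17. The highest were Faap20 (0.45 ± 0.15), Swi5 (0.42 ± 0.10) and, not called, Fan1 (0.32 ± 0.14). Of 15 other damage signalling genes 10 were lower and 0 higher, and of 6 other mismatch repair genes 3 and 0. Of 10 end joining genes 3 were lower and 1 higher (median -0.14), and of 25 excision repair genes 9 and 9 (median 0.08). Differences between these lists were not tested.

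The start sites of all 34 genes stayed open through the passages. Each had an ATAC-seq peak within 1000 bases in all 13 samples, as did 91.4% of 13256 genes tested with a start site. The strength of a peak was taken as the percentile of its -log10 p among all peaks of its sample, since the peak lists hold no read counts and their depth is unknown. By this rank, the P7 samples lay below all P1 samples for 15 genes and above them for 9, where 32.9% and 13.5% of 12821 genes did so. The direction depended on the measure. By the fold enrichment at the summit, 3 genes were lower and 12 higher (6.76% and 33.4% of all genes), so a loss or gain of opening at these promoters cannot be read from the peak lists. Of the 34 genes 17 have another gene starting within 1000 bases on the other strand, such as Nbr1 beside Brca1 and Npat beside Atm. Whether such a neighbour shares the peak was not checked.

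Brca1 had percentiles of 98.5, 98.5, 99.1 and 99.2 in the P1 samples and 99.7, 99.7 and 99.8 in the P7 samples. By this rank its peak was among the strongest at both ends and higher at P7, where its RNA was lowest. By fold enrichment its samples overlapped, at 12.5 to 14.6 at P1 and 13.7 to 16.9 at P7. Fancm went from 87.5, 86.0, 87.9 and 85.9 to 67.7, 52.4 and 63.3, the lowest P1 sample above the highest P7 sample. Brca2 likewise went from 86.6, 85.2, 86.0 and 88.1 to 74.1, 68.6 and 67.7. By fold enrichment Fancm and Brca2 were also lower at P7. Fancm was at 4.04 to 4.61 against 5.85 to 6.12 at P1, and Brca2 at 9.09 to 9.95 against 9.96 to 11.96. These 3 genes were chosen as examples after their values were seen.

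**Figure D4:**
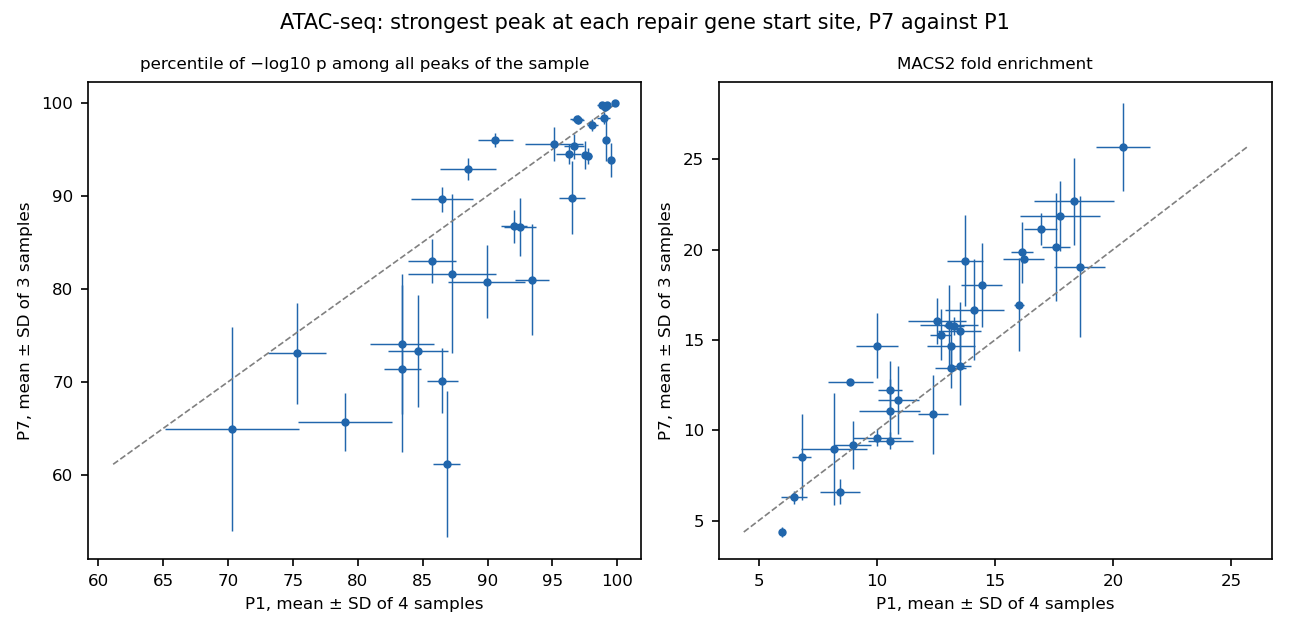
ATAC-seq peak at the start site of each of the 34 genes, P1 (x) against P7 (y), as mean and SD over samples of the percentile of the peak (left) and of the MACS2 fold enrichment (right), with a diagonal of equal values. More genes lie below the diagonal on the left and more above it on the right.

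With E2f4 overexpressed, E2f4 was at 1118 and 1180 CPM against 35.5 and 47.5 CPM in the vector libraries (log2 fold change 4.79 ± 0.15). The repair genes split: 7 were called lower and 8 higher, close to the shares of all genes (28.2% and 28.9%), with a median log2 fold change of 0.10. Atr was at 21.5 and 13.7 CPM with E2f4 and 57.6 and 48.8 CPM with the vector, all lower and without overlap, and was the one gene beyond 2-fold, where 10.4% of all genes were lower by as much (-1.59 ± 0.19, adjusted p = 7.29e-05). Msh6 was at 70.5 and 68.95 against 42.5 and 43.7 CPM, higher in both libraries (0.69 ± 0.11, adjusted p = 3.91e-04). Bard1 was at 17.6 and 20.02 against 11.4 and 9.91 CPM, also higher in both (0.81 ± 0.15, adjusted p = 0.00104). With 2 libraries on each side, 40.3% of all genes lay lower without overlap and 41.2% higher. Atr, Msh6 and Bard1 were named for the lowest adjusted p.

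Among the kinases and the resection genes 6 of 9 were called lower, namely Atr, Chek2 (-0.70), Atm (-0.56), Rad50 (-0.70), Rbbp8 (-0.51) and Nbn (-0.50), and Exo1 was higher (0.70). In the other groups Brca2 was the only gene lower (-0.68), and Bard1, Msh6, Fance (0.77), Rad54l (0.71), Xrcc2 (0.60), Rad51ap1 (0.57) and Fanca (0.39) were higher. The proliferation markers were higher for 8 of 10 (summed 1410 to 1534 against 874 to 884 CPM), although Mki67 itself was at 146 and 207 against 159 and 186 CPM (adjusted p = 0.849). Of the 27 other recombination and Fanconi genes 14 were higher and 2 lower. Length moved with this contrast too: the median over all genes was 0.21 in the shortest part and -0.21 in the longest, and the genes called lower here had a median of 5153 exonic bases against 3740 for those called higher. The share of reads outside genes was 5.64% and 6.01% with E2f4 and 10.8% and 11.5% with the vector. The parts of length and of read composition were not tested. Without overexpression replicate 2 the calls fell from 15 to 9.

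With hairpin sh1, E2f4 was at 20.4 to 21.8 CPM against 59.6 to 60.8 CPM (log2 fold change -1.50 ± 0.09), and the repair genes moved down. Of the 34, 12 were called (17.8% of all genes), all of them lower (7.79%) and by less than 2-fold, with a median of -0.40. Brca2 was at 8.90, 11.2 and 10.2 CPM with sh1 against 19.5, 14.3 and 17.7 CPM, without overlap (-0.77 ± 0.16, adjusted p = 0.00332). Chek1 was at 8.61, 5.15 and 5.36 against 14.7, 11.1 and 11.8 CPM, again without overlap (-0.96 ± 0.21, adjusted p = 0.00497). Fanca was at 13.97, 9.63 and 13.8 against 24.8, 16.6 and 23.1 CPM, where the lowest control lay just above the highest sh1 library (-0.78 ± 0.17, adjusted p = 0.00582). Of all genes, 17.6% lay lower with sh1 without overlap.

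The others were Atm (-0.45), Exo1 (-0.44), Brca1 (-0.44), Brip1 (-0.69), Rad51d (-0.47), Xrcc2 (-0.75), Fancd2 (-0.55), Fanci (-0.76) and Msh6 (-0.30). At P7 against P1, from other libraries, 11 of these 12 were also lower (91.7% of the 12 and 36.7% of the 30), and Rad51d was higher. As 30 of all 34 genes were called lower there, this overlap is near the share among the 34. The proliferation markers were lower for 8 of 10, and Mki67 changed by -0.57. Without the non-targeting replicate 1, which stood apart, 5 genes remained (Atm, Chek1, Brca2, Fanca and Fancd2), and the number was also 5 without non-targeting replicate 3 and 7 without non-targeting replicate 2 or sh1 replicate 2. Set against the overexpression, 4 genes higher with more E2f4 were lower with less: Exo1, Xrcc2, Fanca and Msh6 (4 of the 8 and 33.3% of the 12). Of all 34 genes, 12 were lower with sh1. Atm and Brca2 were lower in both.

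**Figure D5:**
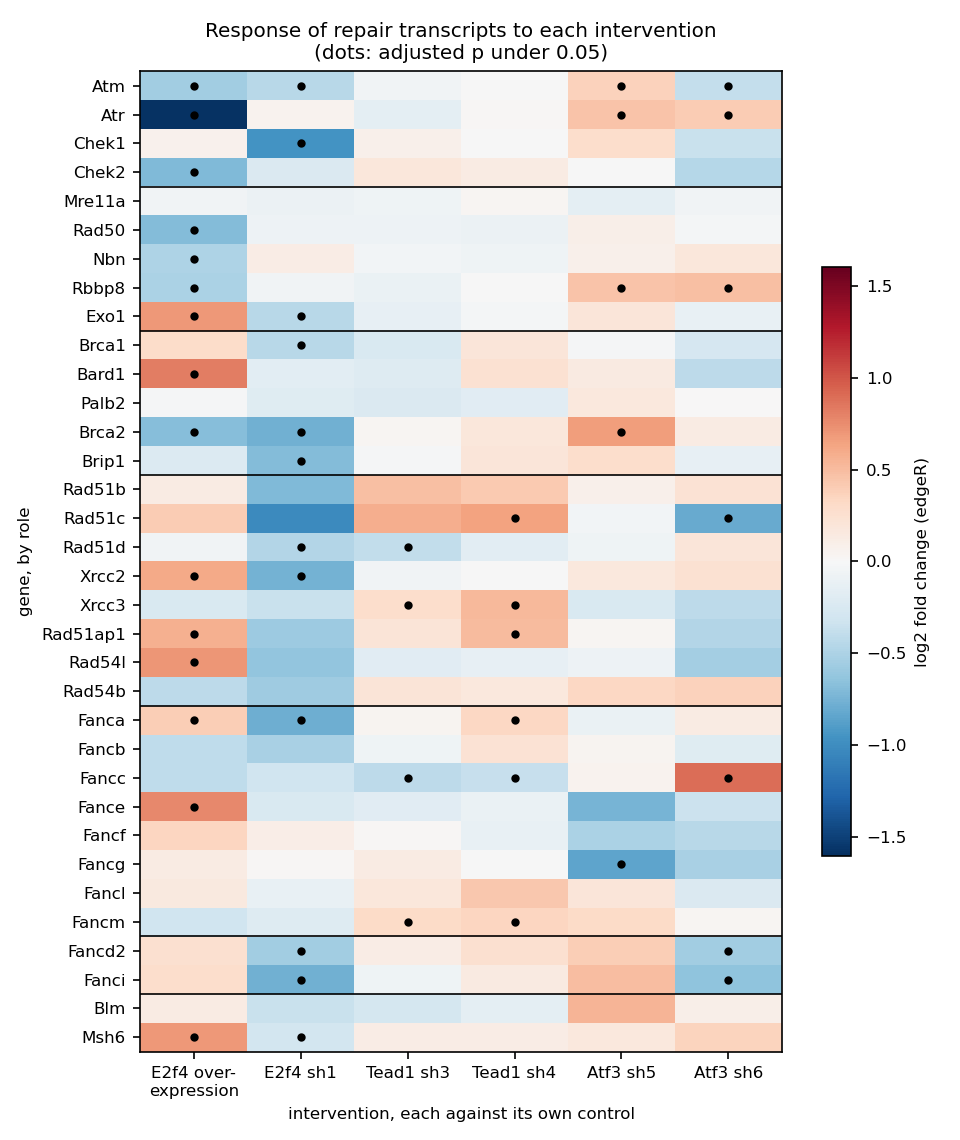
Log2 fold change (colour) of the 34 genes (rows, by role) in the 6 interventions against their own controls (columns), with a dot where the adjusted p was under 0.05. The E2f4 sh1 column is mostly lower, the E2f4 overexpression column is split with Atr the deepest, and the Tead1 columns are pale.

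Knockdown of Tead1 left most repair genes near their control level. Tead1 was at 268 to 285 CPM with sh3 and 313 to 320 CPM with sh4 against 508 to 572 CPM. With sh3, 2 genes were called lower and 2 higher (17.7% and 17.6% of all genes), and with sh4, 1 and 5 (14.7% and 14.4%), so both counts were near or below the share of all genes. Without sh4 replicate 3, 3 genes were called with sh4. Rad51d was at 10.1, 12.2 and 11.9 CPM with sh3, 13.8, 12.99 and 13.4 with sh4 and 14.7, 16.1 and 14.3 with the non-targeting hairpin (-0.40 ± 0.10, adjusted p = 0.00263 with sh3, -0.17 ± 0.10, adjusted p = 0.219 with sh4). Both sets of hairpin libraries lay below the controls. Over all genes, 22.3% with sh3 and 20.2% with sh4 lay below the controls without overlap, and 22.4% and 19.8% above them. Fancm was at 20.5, 21.1 and 19.2 CPM, 18.2, 21.6 and 22.6 CPM and 17.2, 14.6 and 17.2 CPM in the same order, higher with both (0.31 ± 0.09, adjusted p = 0.0104 and 0.34 ± 0.09, adjusted p = 0.00527). Fancc was at 7.24, 9.54 and 6.97 CPM, 8.97, 8.20 and 7.38 CPM and 9.65, 10.1 and 11.99 CPM, lower with both (-0.42 ± 0.13, adjusted p = 0.0133 and -0.37 ± 0.13, adjusted p = 0.0320). The hairpins share their controls and, by their listed sequences, target the same site shifted by 1 base, so values are given side by side only. An effect of Tead1 loss and an effect of that sequence on other genes cannot be told apart.

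Xrcc3 was at 15.8, 15.3 and 14.6 CPM with sh3, 16.6, 18.2 and 19.1 CPM with sh4 and 11.4, 13.7 and 12.5 CPM in the controls, above them with either hairpin (0.28 ± 0.10, adjusted p = 0.0253 and 0.52 ± 0.10, adjusted p = 9.64e-05). Rad51ap1 was at 9.89, 8.75 and 10.5 CPM with sh4 against 6.70, 7.43 and 6.46 CPM, also without overlap (0.50 ± 0.14, adjusted p = 0.00661). Fanca (0.33) and Rad51c (0.64) were the others higher with sh4. Between the hairpins only Brca1 was called, 1 gene higher with sh4 (3.34% of all genes) and 0 lower (4.03%). It was at 17.5, 17.9 and 19.6 CPM with sh4, 13.3, 14.9 and 12.4 CPM with sh3 and 19.6, 14.00 and 14.6 CPM in the controls, which overlapped with each hairpin. The difference of sh4 from sh3 was 0.44 ± 0.11, adjusted p = 0.0109. Next were Bard1, at 7.22, 7.48 and 6.47 CPM with sh4 and 4.62, 5.68 and 5.23 CPM with sh3 (0.45 ± 0.15, adjusted p = 0.0565), and Fanca, at 16.7, 15.6 and 18.2 and 13.3, 15.8 and 12.3 CPM (0.29 ± 0.10, adjusted p = 0.0917), neither of them called. Without sh3 replicate 3 or sh4 replicate 3, 0 genes were called between the hairpins, and without sh3 replicate 1 or 2, 2 were. Mki67 was at 92.2 to 102 CPM with sh3 and 109 to 131 CPM with sh4.

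Atf3 was low in all libraries of its knockdown, at 0.451 to 2.10 CPM with sh5, 1.51 to 2.09 CPM with sh6 and 2.77 to 3.31 CPM with the non-targeting hairpin. It was called lower with sh5 (adjusted p = 0.0447) but not with sh6 (adjusted p = 0.114). The paper assessed the knockdown by RT-qPCR and by immunoblot of the protein, and these low counts do not replace that evidence. With sh5, 1 gene was called lower and 4 higher (18.1% and 17.7% of all genes). With the replicate number as a block, 3 were lower and 2 higher with sh5, and 3 of the 5 calls were kept. With sh6, 4 were lower and 3 higher (26.0% and 23.8%). Without non-targeting replicate 1, 2 or 3 in turn, 3, 1 and 2 genes were called with sh5 and 4, 3 and 4 with sh6, and without sh6 replicate 1 or 2, 4 were called with sh6. Atr was at 36.6, 37.1 and 42.5 CPM with sh5, 34.2, 39.8 and 38.00 CPM with sh6 and 31.7, 25.8 and 27.02 CPM in the controls, higher with both (0.46 ± 0.11, adjusted p = 0.0102 and 0.40 ± 0.11, adjusted p = 0.0108). Rbbp8 was also called higher with each (0.46 and 0.48). With sh5, Brca2 was at 17.6, 16.5 and 16.7 CPM, with sh6 at 10.7, 11.1 and 13.2 CPM and in the controls at 11.96, 10.3 and 9.79 CPM. Only the sh5 libraries lay above the controls as a group (0.66 ± 0.12, adjusted p = 0.00353). Fancg was at 6.66, 4.09 and 2.48 CPM with sh5 against 7.89, 8.01 and 7.99 CPM, all lower (-0.85 ± 0.29, adjusted p = 0.0416).

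Both hairpins were again compared with the same controls. Over all genes, 28.6% with sh5 and 34.3% with sh6 lay below the controls without overlap, and 25.3% and 33.3% above them. Fancc was at 8.61, 10.5 and 6.88 CPM with sh5, 15.1, 15.5 and 16.1 CPM with sh6 and 9.50, 8.50 and 7.16 CPM in the controls. Only the sh6 libraries stood apart, all higher (0.89 ± 0.16, adjusted p = 0.00123). Fancd2 was at 6.99, 6.04 and 7.27 CPM with sh5, 3.60, 2.82 and 4.07 CPM with sh6 and 5.85, 5.16 and 4.48 CPM in the controls, so sh6 lay below the controls and sh5 above them. It was called with sh6 alone (-0.56 ± 0.19, adjusted p = 0.0277), and sh6 differed from sh5 by -0.95 ± 0.18, adjusted p = 0.00165. Atm was at 54.1, 51.1 and 68.8 CPM with sh5, 31.03, 34.2 and 37.9 CPM with sh6 and 48.9, 45.1 and 40.7 CPM in the controls, on opposite sides of them (0.37 and -0.38). Between sh6 and sh5 it changed by -0.75 ± 0.13, adjusted p = 7.70e-04.

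Between sh6 and sh5, 7 genes were called lower and 1 higher (26.6% and 25.9% of all genes): Atm, Fancd2, Fanci (-1.13), Chek1 (-0.64), Brca2 (-0.54), Rad51c (-0.77) and Bard1 (-0.56), with Fancc higher (0.84). Of these, Fanci (-0.64) and Rad51c (-0.81) were also called lower with sh6 against the controls. Other values moved with sh6. Mki67 was at 48.9 to 56.7 CPM with sh6 and 72.0 to 87.1 CPM in the controls, and Cdkn1a, the p53 target that encodes p21, at 1066 to 1127 against 652 to 691 CPM. The summed fibroblast markers were 17056 to 17902 against 39020 to 40737 CPM, and those of skeletal muscle 196 to 215 against 37.1 to 38.4 CPM. E2f4 was at 59.1 to 66.6 against 36.6 to 42.3 CPM. Their part in the repair gene values was not tested. With sh5 replicate 3 left out of the fit, 15 genes were called for sh6 against the controls, 11 lower and 4 higher, and 11 between sh6 and sh5, 9 lower and 2 higher. The share of all genes in that refit is not given here. In the fit with that library, 49.8% and 52.6% of all genes were called in these comparisons, in either direction.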

How the data were processed

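RNA-seq of 44 libraries and ATAC-seq of 13 samples were used. Per the methods of the study, reads were trimmed with Trimmomatic 0.39, aligned to mm10 with HISAT2 2.2.1 and counted per gene with HTSeq 0.12.4 with strand ignored, and the counts deposited by the authors are raw. The authors called ATAC-seq peaks in each sample with MACS2 after alignment with Bowtie2 and removal of duplicates. The deposited fold enrichment and -log10 p and q of each peak are relative to that sample alone.

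The tests were run in R 4.3.3 with edgeR 4.0.16, separately for each RNA-seq experiment (filterByExpr, TMM, quasi-likelihood test, Benjamini-Hochberg adjustment), in place of DESeq2, which the study used and which was run as an alternative (1.42.0). The SE is the log2 fold change divided by the square root of F. The study's own threshold, a fold change over 2 besides the adjusted p, is given as a second call rule. The scripts were tested on simulated counts. Depth was 9147324 to 27552949 counts per library. Samples were grouped by their labels, and the reduced-representation bisulfite samples were not analysed here. The 34 genes and all lists were chosen with earlier results of these data known. Values of each library are given for the lowest and highest changed gene of each role at P7 against P1, for Brca1, Brca2, Fancd2, Chek1 and Atm, and for the 3 genes of lowest adjusted p in each intervention. Alternatives were DESeq2, its size factors, other count filters, only the 2 groups compared in the fit, the replicate number as a block, leaving out each library, and for ATAC-seq a window of 500 bases, a -log10 q of at least 5 and the fold enrichment.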

Additional observations from a re-analysis of the deposited data

Results flagged for a closer look

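Among 170 groups of 4 samples of these genes, 6 (3.53%) held 1 sample far from the other 3, where chance gives about 1 in 20. Chek1 was at 17.4 CPM in P1 replicate 3 against 15.8 to 15.96 CPM in the others, and Rad50 was at 61.3 CPM in the same library against 57.6 to 58.2 CPM. Blm was at 16.2 CPM in P3 replicate 1 against 22.1 to 23.0 CPM. At P7, Rad51d was at 20.99 CPM in replicate 2 against 16.3 to 17.0 CPM, and Fancc at 10.4 CPM in replicate 1 against 7.92 to 8.33 CPM. The peak at the start site of Rad50 ranked at the percentile 82.9 in P1 ATAC-seq replicate 4 against 87.4 to 88.0 in the others.

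Hairpins against the same gene differed for 9 results, each by the direct test between the hairpins with all 3 groups in the fit. For Tead1, Brca1 was 0.44 higher with sh4 than with sh3 on the log2 scale. For Atf3, the log2 difference of sh6 from sh5 was -0.75 for Atm, -0.95 for Fancd2, -1.13 for Fanci, -0.64 for Chek1, -0.54 for Brca2, -0.77 for Rad51c and -0.56 for Bard1, and it was 0.84 for Fancc.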

How the results depend on the processing

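No single gene that was called turned its direction in these alternatives, but the balance of lower and higher calls turned in some comparisons. With E2f4 overexpression it went from 7 lower and 8 higher to 10 and 9 with the replicate block and 11 and 9 without vector replicate 2, for Atf3 sh5 from 1 and 4 to 3 and 2 with the block, and for Atf3 sh6 from 4 and 3 to 1 and 3 without sh6 replicate 1 or non-targeting replicate 1 and 1 and 2 without non-targeting replicate 2. The even split with Tead1 sh3 (2 and 2) tipped either way with a library left out. With a fold change over 2 required besides the adjusted p, the genes called were 0 at P3 against P1, 13 at P5 against P3, 11 at P7 against P5, 1 with E2f4 overexpression, 0 with E2f4 sh1, 0 with Tead1 sh3, 0 with sh4 and 0 between them, 0 with Atf3 sh5, 0 with sh6 and 1 between them, since most called changes were smaller. For Atf3 sh5 against its controls 8 genes were called by DESeq2 and 3 with only those 2 groups in the fit, against 5. For sh6 against its controls 15 were called with only those 2 groups in the fit, and 15 with sh5 replicate 3 left out, an alternative chosen after seeing the data, against 7. In the main fit 35.9% of all genes were called for sh5 against its controls and 49.8% for sh6. The shares of all genes in the other fits are not given here. By the MACS2 fold enrichment 15 start sites did not overlap between P1 and P7, against 24 by rank, and the majority turned from lower to higher. The causes were not tested.

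With 1 library left out in turn, the genes called ranged from 9 to 10 at P3 against P1, 22 to 25 at P5 against P3, 16 to 21 at P7 against P5, 30 to 31 at P7 against P1 and 28 to 29 at P7 against P3. The range was 9 to 20 for E2f4 overexpression, 5 to 14 for E2f4 sh1, 3 to 6 for Tead1 sh3, 3 to 5 for sh4 and 0 to 2 between them, 1 to 6 for Atf3 sh5, 3 to 7 for sh6 and 7 to 11 between them, and 24 to 27 for the start sites. The shares of all genes with a library left out are not given here. In the main fit the passage comparisons called 33.4%, 28.7%, 16.8%, 62.5% and 51.3% of all genes in the same order. The interventions called 57.2%, 17.8%, 35.4%, 29.1%, 7.37%, 35.9%, 49.8% and 52.6%. For single genes, 2861 results kept direction and side of the threshold under the processing alternatives, 48 gained a call and 130 lost it. Besides the 2-fold rule and the replicate block these were 2093, 37 and 25. With a library left out these numbers were 2733, 55 and 136.

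The replicate numbers were not taken to pair the samples, since the labels tie them to no shared culture and 13 of 24 same-numbered pairs of passage libraries, not all, correlated above 0.1 in their deviations. For its methylation samples the paper speaks of 3 independent series, without tying the RNA-seq libraries to them. With the replicate block, 31 genes were called at P7 against P1, 24 at P5 against P3 and 18 at P7 against P5. With E2f4 overexpression 19 were called and with sh1 12. With Atf3 sh5 5 were called (3 of them shared with the fit without the block) and with Atf3 sh6 9 (6 shared). The shares of all genes with the block are not given here. In the main fit they were 62.5%, 28.7%, 16.8%, 57.2%, 17.8%, 35.9% and 49.8% in the same order.

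Depth limits the lowest genes at P7, where Rad51c, Rad51b, Palb2 and Rad54l rested on as few as 7, 8, 9 and 9 reads in a library. With 2 libraries per group in the overexpression experiment, leaving one out leaves an arm with 1 library, which is then assumed to vary like the other group. The peak lists hold no read counts.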
